A study of Saccharomyces pastorianus with 12 samples.

Results

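The transcriptome of the lager yeast Saccharomyces pastorianus late in a brewery propagation, 30 h after inoculation, was compared with that 4 h after inoculation. The comparison used the 3 arrays labelled 30h and the 3 labelled 4h, 6 of the 12 arrays of the series; the others were taken at 0 and 8 h. Both times came from the strain CB11, for which the labels name no mutation or drug, sampled from a 140 hl vessel that an 8 hl vessel had inoculated. The wort held 80% malt and 20% maltose adjunct at 17° Plato, was supplemented to 0.5 mg per l zinc, was kept at 20 °C and received oxygen to hold 7 to 8 mg per l dissolved. The groups therefore differed in the labels only by time in the vessel. The 3 samples of a time are described as a triplicate from a vessel and not as separate propagations, so a p-value covers no more than how far these samples scatter, possibly for technical reasons.

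Propagation is the aerobic stage in which a brewery multiplies yeast before fermentation. Fresh wort sets off sugar uptake, glycolysis and the building of ribosomes, and as sugars and nutrients fall yeast turns to stores, to other carbon sources and to stationary phase. Yeast growth rate is tied to the production of ribosomal proteins and of the factors that assemble them, which usually move together, while stress and storage carbohydrate genes usually move the other way. Genes of mating and meiosis belong to haploid cells and to starved diploids, and are little used in a growing brewing culture.

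Signals from the S. cerevisiae probe sets of the array were brought to 1 common distribution by quantile normalisation of their log2 values over these 6 arrays. Since CB11 belongs to a hybrid species with a second parental genome, each probe set may also have bound transcripts of the other parent. Of 5635 genes with a probe set, 5478 lay on average above the background and were tested. A log2 change is the mean of the 30h arrays minus the mean of the 4h arrays, and a positive value is higher at 30h relative to the other genes of the array. In bulk RNA a change within each cell cannot be told apart from a change in the share of cells that express a gene, and total mRNA per cell cannot be read. The percentile of a gene is its rank among the 5478 within 1 array, used here only to follow a gene between times, because brightness also depends on the probes. A gene was called at an adjusted p under 0.05 (limma, Benjamini-Hochberg over the 5478 genes, two-sided), and "rose" and "fell" are used of called genes alone.

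The change between the times ran through most of the genome. At 30h 1997 genes rose, which is 36.5% of those tested, and 2190 fell, which is 40.0%; together they make 76.4%. The arrays of the times did not overlap for 4459 genes, or 81.4%, and 1530 of the rises and 1706 of the falls exceeded 1 log2 unit. The median change over all genes was -0.10. Without normalisation 1458 genes rose and 2904 fell, so that rises made up 33.4% of the calls against 47.7% after normalisation, and the median of all genes was -0.68. Each list of genes below is to be read against these shares and this median.

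The 6 arrays differed in quality measures that moved with time, and the part these play in the results was not tested. The median deposited signal of the tested genes fell in the range 96.7 to 103 at 4h and 54.6 to 76.2 at 30h, and the SD of their log2 signals was 1.97 to 2.0 at 4h but 1.20 to 1.23 at 30h. The background, taken as the 95th percentile of Schizosaccharomyces pombe probe sets, was a signal of 4.12 to 5.57 at 4h and 12.6 to 14.9 at 30h. On single arrays 97.0 to 98.8% of tested genes lay above it, a share raised by the choice of genes for testing, and 5048 of the 5478 lay above it on all 6 arrays. The cre hybridisation control stood at 29.4 to 38.4 times the median signal at 4h and at 137 to 205 times at 30h. The ratio of 3′ to 5′ probe sets over 8 control genes, a sign of RNA integrity, lay between 1.73 and 2.02 at 4h and between 1.81 and 1.86 at 30h. Replicates were tighter at 4h: the median SD of a gene was 0.089 at 4h and 0.337 at 30h (log2 units, n = 3).

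The order of genes was largely redrawn. Spearman's rho between a 4h and a 30h array, a description over 5478 genes of 1 array pair each, ran from 0.199 to 0.273, against 0.990 to 0.994 among the 4h arrays and 0.905 to 0.942 among the 30h arrays. Genes in the lowest decile by rank at 4h had a median percentile of 5.2 at 4h and 41.4 at 30h, and 80.3% of them rose. Genes in the highest decile had a median percentile of 95 at 4h and 73.1 at 30h, and 81.9% of them fell. Of the 2nd decile 61.3% rose, and of the 9th 72.1% fell. The direction of a change thus went with the rank at 4h, and the part this plays in each list was not tested. Such a pattern is partly built in, since the deciles were cut on the same 4h values that enter the change. With rho this low and both times on 1 distribution, the lowest ranks mostly move up and the highest down. The filter added to this: genes dim at 4h were tested only if bright enough at 30h, and the reverse. All 42 tested genes above background on no 4h array rose, and 39 of the 40 above it on no 30h array fell. The share called in a list is also to be read against that of the deciles its members came from. For each list the text therefore also gives its offset, the median over members of the percentile at 30h minus the median percentile at 30h of all genes from the same decile at 4h, members included, a description added after the data were seen. An offset near 0 means that members stood near the median of their deciles at 30h. A decile spans a range of ranks, so the offset does not match a gene to others of exactly its own rank.

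**Figure D1:**
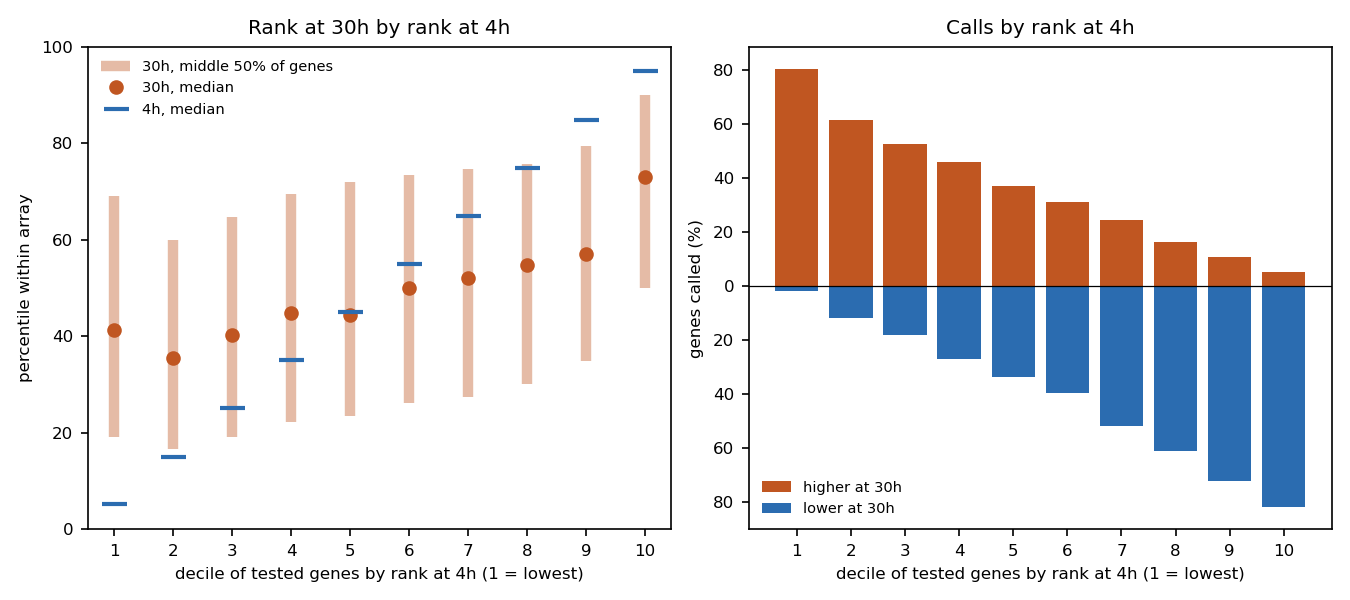
Left, percentile within array at 30h (median and middle 50% of genes) and at 4h (median) for the 5478 tested genes split into deciles by their mean rank at 4h. Right, the percent of each decile called higher (up) or lower (down) at 30h; rises go from 80.3% of the lowest decile to 5.13% of the highest, and falls from 2.01% to 81.9%.

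Genes for cytosolic ribosomal proteins left the highest ranks: 59 of them were among the 100 highest ranks at 4h and 9 at 30h. The 2 sets of 100 shared 14 genes, 14% of each. The shared genes, named because they are in that overlap and so chosen after their values were seen, were CUP1-1, HPF1, HSP12, MAL32, TIF2 and the ribosomal protein genes RPL16A, RPL20B, RPL40A, RPL42B, RPS16B, RPS17A, RPS26A, RPS27B and RPS30A. MAL32 encodes maltase, CUP1-1 a copper metallothionein, HPF1 a cell wall mannoprotein and TIF2 the translation initiation factor eIF4A. The probe sets of CUP1-1, MAL32, TIF2, RPL42B and RPS30A may bind several genes, so their values may not be those of a single gene. MAL32 changed by -0.06 ± 0.15 (limma standard error, n = 3 arrays per time, adjusted p = 0.726) and TIF2 by 0.17, neither a call. The deposited signals of both, before normalisation, were lower at 30h. They were 2480 to 3200 at 4h and 513 to 648 at 30h for MAL32, and 2130 to 2300 and 350 to 515 for TIF2.

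Genes of the ribosome itself fell. Of 75 large subunit genes tested, 65 fell, 1 rose and 9 were not called, with a median log2 change of -1.93. Of 52 small subunit genes, 41 fell and 2 rose, with a median of -1.84. The median percentile of the large subunit list was 97.9 at 4h and 77.8 at 30h, and the offset of both lists was 7.9. The median member of each lay in the upper part of the highest decile, whose median percentile at 4h was 95, and the lists themselves make up part of that decile. Of all genes in that decile 81.9% fell, beside 86.7% of the large and 78.8% of the small subunit genes.

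RPL3, which encodes a protein close to the peptidyl transferase centre, had normalised log2 signals of 11.10, 11.10 and 11.60 on the 4h arrays and 6.01, 6.20 and 6.16 on the 30h arrays. The groups stood far apart, and the change was -5.15 ± 0.17 (limma standard error, n = 3 arrays per time, adjusted p = 3.82e-07). RPL13A, a large subunit gene with a duplicate RPL13B, had 9.38, 9.30 and 9.37 on the 4h arrays and 0.91, 4.10 and 4.69 on the 30h arrays. All its 30h arrays were lower than all its 4h arrays, but they were spread over several log2 units. Its change was -6.12 ± 0.84 (adjusted p = 0.000208), and -5.20 without 30h A, -6.88 without 30h B and -7.18 without 30h C. RPL6A and the stalk protein gene RPP0 fell by 4.60 and 4.56.

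Among small subunit genes RPS0A gave 9.01, 8.91 and 8.90 on the 4h arrays and 3.04, 3.66 and 3.87 on the 30h arrays, again with a clear gap between the times. It changed by -5.42 ± 0.22 (adjusted p = 5.79e-07). RPS23B, RPS8B and RPS1B followed with falls of 4.74, 4.16 and 3.85. The members that rose were RPL42B, RPS30A and RPS25B, named after their values were seen, with changes of 0.51, 0.63 and 0.64; no ribosomal protein gene rose with median centring, and without normalisation all 75 and all 52 fell. Ribosomal genes mostly come as near-identical pairs. Of the large subunit genes 6, and of the small 3, are read only by probe sets that may bind several genes, RPL42B and RPS30A among them. Without these, 60 large and 39 small subunit genes fell, and 0 large and 1 small rose. The change of RPS23B was -5.34 without 30h C.

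Genes for the factors that assemble ribosomes more often rose than fell. Of 98 ribosome biogenesis genes, 50 rose, 18 fell and 30 were not called, with a median change of 0.59 and a median percentile of 37.7 at 4h and 51.3 at 30h. The rises were 51.0% and the falls 18.4% of the list, beside 45.8% and 27.0% of all genes in the 4th decile at 4h. Its median member lay in that decile. Without normalisation the counts were 34 and 31. The offset was 7.9, the same size as that of the ribosomal proteins.

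DBP8, an RNA helicase for the small subunit precursor, had 4.96, 4.62 and 5.19 on the 4h arrays and 9.64, 10.03 and 9.72 on the 30h arrays, with all 30h values above all 4h values. The change was 4.87 ± 0.19 (adjusted p = 5.07e-07). SPB1, a methyltransferase of the large subunit precursor, rose by 4.42 ± 0.23 and the helicase gene ECM16 by 3.67 ± 0.17. In the other direction EMG1, a methyltransferase of small subunit RNA, fell by 3.75 ± 0.26. NSR1, the yeast nucleolin, was at 7.07, 6.92 and 6.96 on the 4h arrays and 6.45, 7.01 and 7.14 on the 30h arrays. These values overlapped, and its change of -0.12 ± 0.20 (adjusted p = 0.602) was not a call. RNA polymerases I and III transcribe ribosomal RNA and small RNAs, and of their 18 subunits 6 rose and 6 fell, but 3 rose and 10 fell without normalisation (offset -12.3). The widest changes there were falls of 2.62 for RET1, 2.19 for RPC40 and 2.08 for RPC53 and a rise of 2.52 for RPA43; with median centring RPC53 stood at -0.86, not a call (adjusted p = 0.0562).

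**Figure D2:**
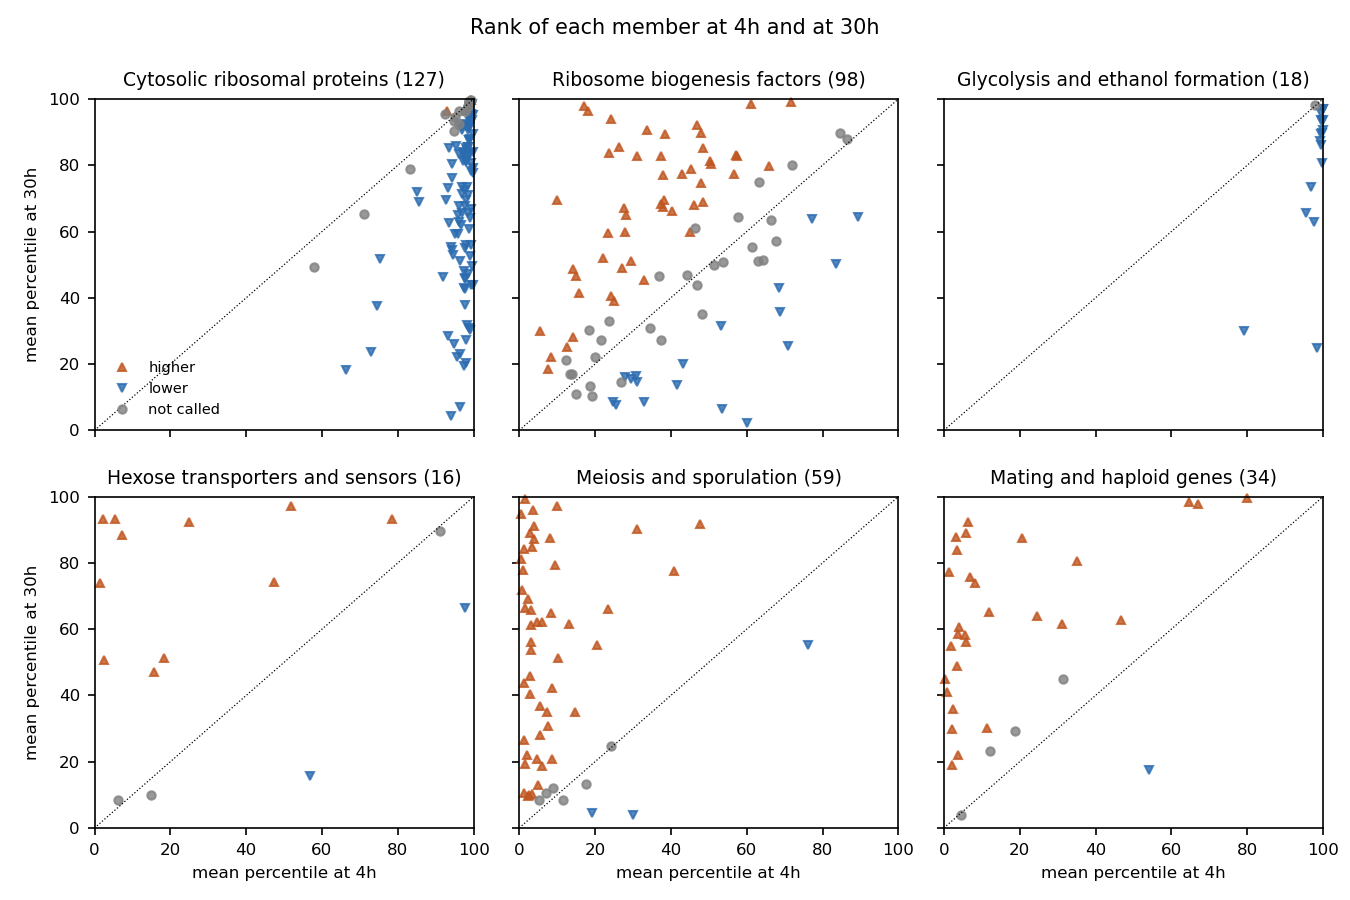
Mean percentile at 4h (x axis) and at 30h (y axis) of each tested member of 6 gene groups, with symbols for genes called higher, lower or neither and a dotted line of equal rank. The ribosomal proteins and glycolytic genes hang below the line from the right edge, 50 of 98 ribosome biogenesis genes were called above it, and the meiosis and mating genes rise from the left edge.

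Genes for the other parts of translation fell as well. Aminoacyl-tRNA synthetases, which charge tRNAs with amino acids, numbered 21: 18 fell and 1 rose, for a median change of -1.94. Their median percentile was 90.9 at 4h and 47.7 at 30h, and the offset of -13.9 put them below the median of their deciles. THS1, the threonyl-tRNA synthetase, had 9.26, 9.24 and 9.34 on the 4h arrays and 4.13, 3.86 and 3.72 on the 30h arrays, a wide gap. It changed by -5.38 ± 0.16 (adjusted p = 3.08e-07). The synthetases for aspartate (DPS1), phenylalanine (FRS2) and glycine (GRS1) fell by 4.05, 3.81 and 3.58. The change of FRS2 was -4.59 without 30h C.

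Of 33 initiation, elongation and release factors 25 fell and 3 rose, for a median of -1.91 and an offset of -13.5. SUP35, the release factor known for its prion form, fell by 4.22 ± 0.23. CAM1, a subunit of the elongation factor eEF1B, fell by 3.61 ± 0.25. EFT2, elongation factor 2, which shares its probes with a duplicate gene, fell by 3.56 ± 0.15, and TIF5, initiation factor eIF5, by 3.36 ± 0.40. The 3 members that rose, named after their values were seen, were SUI1, GCN3 and NIP1. They encode initiation factor subunits and rose by 0.81, 0.86 and 1.13, but no factor or synthetase rose without normalisation. The change of TIF5 was -4.08 without 30h B.

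Glycolytic genes fell but remained among the high ranks. Of 18 genes, 17 fell and none rose, with a median change of -2.12 and a median percentile of 99.5 at 4h and 89.5 at 30h. The 1 gene not called was HXK2, hexokinase 2, at 0.17. The offset was 16.4, taken against the highest decile as a whole, whose median percentile at 4h was 95 and so below that of these genes.

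PDC1, the main pyruvate decarboxylase of alcohol formation, had 10.73, 10.86 and 10.73 on the 4h arrays and 8.65, 7.47 and 7.32 on the 30h arrays. The groups did not overlap, and the change was -2.96 ± 0.32 (adjusted p = 5.73e-05). PGI1, which interconverts glucose and fructose phosphates, had 9.84, 9.88 and 9.78 on the 4h arrays and 5.87, 5.26 and 4.74 on the 30h arrays. It fell further than the rest of the list, by 4.54 ± 0.26. ENO2 and TDH3, enolase and glyceraldehyde phosphate dehydrogenase, fell by 2.75 ± 0.25 and 2.49 ± 0.28, and glucokinase (GLK1) by 2.79 ± 0.14. ADH1, the alcohol dehydrogenase that makes ethanol, fell by 2.29, PGK1 by 2.02 and ADH2, which oxidises ethanol, by 1.68.

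Most sugar transporter genes rose. Of 16 hexose transporters and sensors, 11 rose and 2 fell, with a median change of 1.38, a median percentile of 17 at 4h and 74 at 30h and an offset of 23.1. HXT14 and HXT8, little-used members of the family, led. HXT14 had 2.76, 3.22 and 3.22 on the 4h arrays and 9.52, 8.68 and 8.62 on the 30h arrays, with no overlap, and rose by 5.87 ± 0.27. HXT8 rose by 5.13 ± 0.32, HXT10 by 4.51 ± 0.26 and the galactose permease gene GAL2 by 4.30 ± 0.31. HXT1, a low-affinity transporter, had 6.38, 6.17 and 6.21 on the 4h arrays and 7.71, 7.08 and 7.25 on the 30h arrays. Its 30h arrays all stood above its 4h arrays and the change was 1.10 ± 0.19 (adjusted p = 0.000829), but 0.34 on the deposited scale, not a call (adjusted p = 0.0902). HXT7, a high-affinity transporter whose probes are shared, was at -0.43 (adjusted p = 0.143), and HXT2 and SNF3, named after their values were seen as the members that fell, changed by -2.67 and -1.78. Of the family's genes, 3 are read by probe sets that may bind several; without them 9 rose. The change of HXT8 was 5.82 without 30h B.

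Maltose is the main sugar of wort, taken up by MAL and related permeases and split by maltase. Of 10 genes tested, 5 rose, 2 fell and 3 were not called. This majority depended on the scale: with each array centred on its median 4 rose and 5 fell, and without normalisation 3 rose and 6 fell. The median percentile was 76.2 at 4h and 89.1 at 30h, with an offset of 25.3.

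The permease gene MAL31 had 9.74, 9.78 and 9.72 on the 4h arrays and 9.91, 9.57 and 9.57 on the 30h arrays. The times overlapped, and the change was -0.06 ± 0.15 (adjusted p = 0.723), with percentiles of 98 at 4h and 97.5 at 30h. Its deposited signals were lower at 30h, with 2070, 2180 and 1890 on the 4h arrays and 374, 352 and 335 on the 30h arrays. The lack of a change in MAL31 thus holds for the normalised scale and for rank. MAL11, a permease for several alpha-glucosides, had 8.09, 7.82 and 7.86 on the 4h arrays and 10.02, 9.42 and 9.83 on the 30h arrays, all higher at 30h. It rose by 1.83 ± 0.19 after normalisation but stood at -0.06 (adjusted p = 0.774) on the deposited scale. MAL13, an activator of such genes, rose by 2.004 ± 0.15. The activator MAL33 and the isomaltase gene IMA1 fell by 2.04 ± 0.32 and 2.29 ± 0.19.

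Storage carbohydrate genes fell. Of 21 genes of trehalose and glycogen metabolism, 15 fell and 3 rose, with a median change of -2.43, or -2.34 with the gene dim at 30h set at its bound. Their median percentile was 92 at 4h and 42.5 at 30h and the offset -24.5, the lowest of the lists described. Falls made up 71.4% of the list, beside 81.9% of all genes in the highest decile at 4h, where its median member lay. PGM2, phosphoglucomutase, had 9.30, 9.31 and 9.31 on the 4h arrays and 3.50, 4.65 and 3.36 on the 30h arrays. Its groups were far apart, and it changed by -5.47 ± 0.32 (adjusted p = 1.79e-06). GSY1, glycogen synthase, fell by 3.73 ± 0.26, UGP1, which makes UDP-glucose, by 3.69 ± 0.22, and GLC3, the glycogen branching enzyme, by 3.46 ± 0.34. TPS1, trehalose phosphate synthase, had 9.40, 9.27 and 9.38 on the 4h arrays and 6.74, 6.57 and 6.11 on the 30h arrays, without overlap, and fell by 2.88 ± 0.18. The 3 that rose, named after their values were seen, were the glycogenin gene GLG2 and the phosphatase targeting subunits PIG1 and PIG2, by 1.68, 1.54 and 2.30. The change of PGM2 was -6.24 without 30h B.

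Most stress genes fell too, with exceptions. Of 38 heat shock and general stress genes, 30 fell and 6 rose, with a median of -1.59 and an offset of -6.3. The 30 were 78.9% of the list, beside 72.1% of all genes in the 9th decile at 4h, where its median member lay. SBA1, a co-chaperone of Hsp90, had 9.48, 9.46 and 9.43 on the 4h arrays and 4.44, 4.35 and 3.35 on the 30h arrays, a clear gap, and fell by 5.41 ± 0.28. The Hsp70 gene SSA4 lay below background on all 3 arrays at 30h and fell at least 8.06-fold (adjusted p = 0.000391). Such a bound sets the mean of the bright time against the background of the dim one, or the gene's own value where higher. It holds on the normalised scale only and was not worked out on the deposited signals, where it could be smaller. Adjusted p-values (limma) of the genes so given lay between 5.2e-07 and 0.000758. A gene below background on only some arrays of a time has no bound here, so the size of its change rests partly on signals below background. Examples above background on only 1 of 3 arrays were MER1, MAM1, FIG1 and HXT10 at 4h. At 30h they included NAP1, MLC1, ADE8, CYS3, ILV1, URA6, EMG1, HAP1, MYO5, ERV1, ATG18 and MAL33. SSA2 fell by 3.68 ± 0.20 and the small heat shock gene HSP26 by 2.85 ± 0.37. The change of HSP26 was -3.49 without 30h A.

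SIP18, which protects dried cells, was the exception of greatest size. It had 5.35, 5.45 and 5.50 on the 4h arrays and 10.86, 11.26 and 10.63 on the 30h arrays, all 30h values above all 4h values, and rose by 5.48 ± 0.18, with percentiles of 26.6 at 4h and 99.8 at 30h. HSP12, a membrane-bound stress protein used as a marker of yeast stress, had 9.96, 9.96 and 9.97 on the 4h arrays and 10.47, 10.36 and 10.29 on the 30h arrays. It was high at both times. Its change was 0.41 ± 0.13 (adjusted p = 0.0215), but it was -1.37 with median centring and -1.95 on the deposited scale, both past the threshold, so no direction is given for it.

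**Figure D3:**
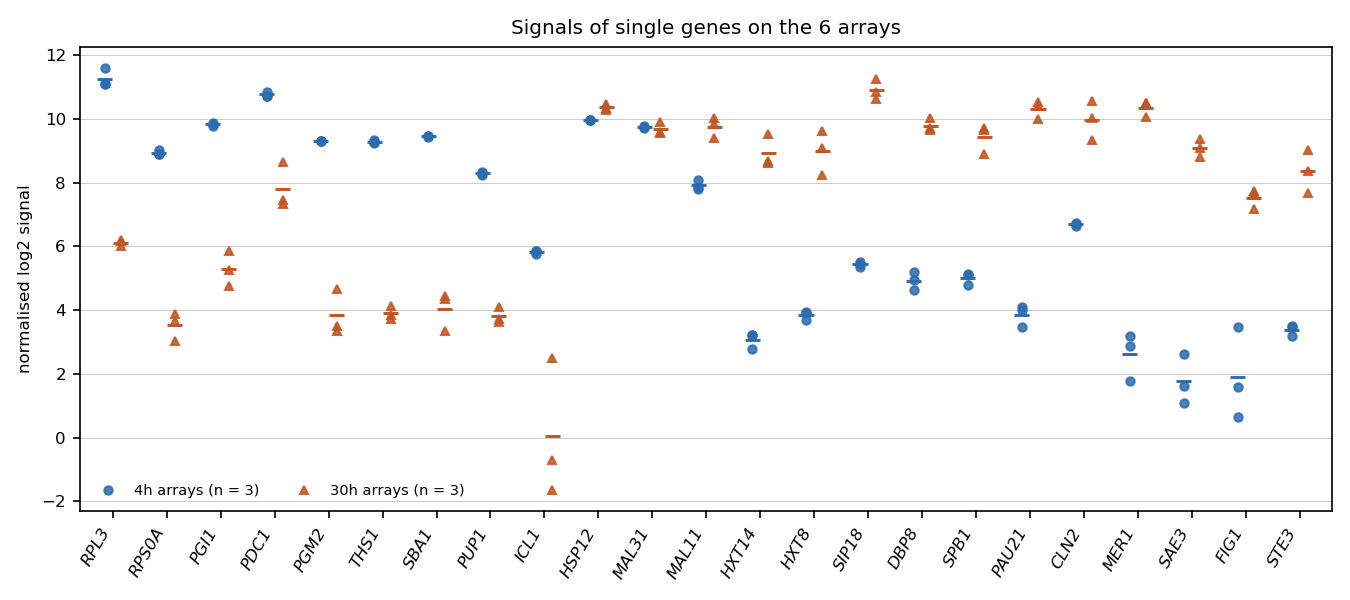
Normalised log2 signal (y axis) of 23 named genes on each of the 3 arrays at 4h (circles) and the 3 at 30h (triangles), with a short bar at each mean. RPL3 to ICL1 sit lower at 30h, HSP12 and MAL31 lie close at both times, and MAL11 to STE3 sit higher at 30h.

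Among 29 oxidative stress genes 21 fell against 4 that rose (median -1.61, offset -4.3). The 21 were 72.4% of the list, beside 72.1% of all genes in the 9th decile at 4h, where its median member lay. The glutaredoxin genes GRX1 and GRX3 fell by 3.42 ± 0.19 and 3.21 ± 0.34, the catalase gene CTT1 by 3.08 ± 0.16 and the cytochrome c peroxidase gene CCP1 by 2.82 ± 0.41. SOD2, the superoxide dismutase of mitochondria, had 9.26, 9.24 and 9.17 on the 4h arrays and 7.97, 7.86 and 8.47 on the 30h arrays. The values did not overlap, and it fell by 1.12 ± 0.18. In the proteasome list 31 of 37 genes fell and 3 rose (median -1.66, offset -4.8). These 31 were 83.8% of a list whose median member also lay in the 9th decile. Core subunits led: PUP1 gave 8.24, 8.30 and 8.35 on the 4h arrays and 3.61, 3.73 and 4.11 on the 30h arrays, a wide gap. PUP1 fell by 4.48 ± 0.18, PUP3 by 4.42 ± 0.48 and PRE9 by 3.34 ± 0.29, and the ubiquitin receptor RPN10 by 3.28 ± 0.21. PRE7, RPN2 and SEM1 rose, by 1.17, 0.98 and 2.07; they are named after their values were seen. Without normalisation no proteasome gene and 1 oxidative stress gene rose. The change of CCP1 was -3.41 without 30h A. The change of PUP3 was -5.20 without 30h B.

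Respiration and mitochondrial genes fell. In the TCA cycle 15 of 17 genes fell and 1 rose (median -1.71), in the respiratory chain and ATP synthase 27 of 38 fell and 3 rose (median -1.65), and in mitochondrial protein import 25 of 36 fell and 3 rose (median -1.64). The import list had an offset of -17, the respiratory chain -1.7 and the TCA cycle -3.2. Falls made up 88.2% of the TCA list and 71.1% of the chain list, whose median members lay in the highest decile at 4h. Of all genes in that decile 81.9% fell. Without normalisation the rises were 1 in the TCA cycle, 0 in the chain and 1 in import.

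LSC1, a subunit of succinyl-CoA ligase, fell by 3.13 ± 0.17, the isocitrate dehydrogenase subunits IDH1 and IDH2 by 2.28 ± 0.32 and 2.66 ± 0.21 and SDH4 of succinate dehydrogenase by 2.65 ± 0.19. CIT1, citrate synthase, had 9.30, 9.28 and 9.36 on the 4h arrays and 7.18, 7.09 and 7.11 on the 30h arrays. It fell by 2.19 ± 0.13 with no overlap. In the chain COR1, of complex III, fell by 3.63 ± 0.39, COX5A, a subunit of cytochrome oxidase, by 3.22 ± 0.26, and the ATP synthase genes ATP3 and ATP2 by 2.84 ± 0.29 and 2.74 ± 0.16. The import genes with the widest changes were SAM35, TIM9, ERV1 and TOM6, which fell by 3.50, 3.29, 3.26 and 3.14. Mitochondrial ribosomal proteins numbered 73, of which 47 fell and 8 rose (median -1.04, offset -7.8), but 66 fell and 0 rose without normalisation. The 47 were 64.4% of the list, beside 61.1% of all genes in the 8th decile at 4h, where its median member lay. RSM25, MRPL20 and RSM7 were below background at 30h and fell at least 11.2-fold, 7.38-fold and 13.4-fold, and MRPS12 fell by 4.73 ± 0.32. TUF1, the elongation factor of mitochondrial translation, had 8.81, 8.77 and 8.74 on the 4h arrays and 4.71, 3.45 and 2.87 on the 30h arrays. It fell by 5.10 ± 0.41. The changes of COR1, ERV1 and TUF1 were -4.30, -3.85 and -5.93 without 30h A.

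Genes for growth on non-sugar carbon were split. Of 19 gluconeogenesis and glyoxylate cycle genes, 9 fell and 4 rose (median -0.40, offset -15.4), but 14 fell and 3 rose without normalisation. ICL1, isocitrate lyase of the glyoxylate cycle, had 5.86, 5.77 and 5.86 on the 4h arrays and -0.71, -1.64 and 2.50 on the 30h arrays. All 30h values were below background and spread widely. ICL1 fell at least 6.41-fold (adjusted p = 0.000758). PCK1, a key enzyme of gluconeogenesis, had 5.46, 5.44 and 5.63 on the 4h arrays and 6.78, 7.01 and 6.81 on the 30h arrays. It rose by 1.35 ± 0.15 without overlap. MDH3 and PYC2 fell by 2.66 ± 0.14 and 2.21 ± 0.18 and the succinate-fumarate carrier SFC1 rose by 2.09 ± 0.34. Peroxisomal and fatty acid breakdown genes numbered 24, of which 9 fell and 7 rose, but 12 fell and 4 rose without normalisation (offset 1.7). PEX3, POT1 and the catalase gene CTA1 fell by 3.01, 2.28 and 2.28, and PEX14 rose by 2.40, or 3.0 without 30h C. Of 10 glycerol genes 7 fell and 2 rose (offset -17.5). The kinase genes GUT1 and DAK1 and the dehydrogenase gene GCY1 fell by 3.68, 2.97 and 2.84, while the glycerol importer gene STL1 rose by 2.87. The change of GUT1 was -4.35 without 30h B.

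Membrane lipid synthesis, which needs oxygen for sterols and unsaturated fatty acids, mostly fell. Of 30 sterol genes, 22 fell and 5 rose (median -1.58, offset 2.4), but 26 fell and 2 rose without normalisation. The 22 were 73.3% of the list, beside 72.1% of all genes in the 9th decile at 4h, where its median member lay. ERG10, the first enzyme of the pathway, fell by 4.36 ± 0.48, ERG27 by 4.17 ± 0.36, ERG26 by 3.38 ± 0.15 and ERG8 by 3.37 ± 0.24. ERG11, the lanosterol demethylase, had 9.82, 9.82 and 9.48 on the 4h arrays and 8.80, 9.12 and 9.38 on the 30h arrays. The shift was small, -0.61 ± 0.19 (adjusted p = 0.0182), and its adjusted p was 0.0755 without 4h A and 0.0796 without 4h B. Of 16 fatty acid genes, 11 fell and 3 rose, but 12 fell and 1 rose without normalisation (offset -17.6). The 11 were 68.8% of the list, whose median member also lay in the 9th decile. FAA4 fell by 4.18, ACB1 by 3.60, the acetyl-CoA carboxylase gene ACC1 by 3.001 and the fatty acid synthase gene FAS2 by 2.88. OLE1, the desaturase that needs oxygen, had 9.77, 9.72 and 9.44 on the 4h arrays and 8.93, 8.73 and 8.15 on the 30h arrays and fell by 1.04 ± 0.22, with no overlap. The change of ERG10 was -5.13 without 30h A.

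Of 22 oxygen-regulated genes, 14 fell and 5 rose (median -1.28, offset -10.6). The flavohaemoglobin gene YHB1 fell by 4.65 ± 0.34, and HAP1, the haem-responsive activator, by 4.16 ± 0.39. HEM14 of haem synthesis fell below background and by at least 5.7-fold. AAC3, the ADP/ATP carrier used without oxygen, had 5.12, 4.95 and 5.01 on the 4h arrays and 8.91, 8.46 and 8.13 on the 30h arrays, all higher at 30h. It rose by 3.48 ± 0.21. The seripauperins are a family of small cell wall proteins known to be made when oxygen is low. All 13 tested members stood at a higher mean rank at 30h, 11 rose and none fell, though 1 fell with median centring and 1 without normalisation, with a median of 3.82 and an offset of 47.8, the highest of the lists described. The changes of HAP1 and YHB1 were -4.86 and -5.26 without 30h A.

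PAU21 had 3.48, 3.99 and 4.09 on the 4h arrays and 10.42, 9.99 and 10.53 on the 30h arrays, and PAU4 had 4.01, 4.01 and 3.87 on the 4h arrays and 9.11, 8.90 and 9.46 on the 30h arrays. Both sets of 30h values lay far above the 4h values. PAU21 rose by 6.46 ± 0.22, PAU4 by 5.19 ± 0.18, PAU18 by 5.12 ± 0.22 and PAU24 by 4.62 ± 0.19. The family is near-identical in sequence, and 10 of the 13 are read by probe sets that may bind several members, so these are not 13 separate observations. Among the 3 with their own probe sets, 2 rose. Among 25 other cell wall mannoproteins 15 fell and 4 rose, the latter 7 with median centring (offset -0.7). TIP1, CWP1 and TIR1 fell by 4.24 ± 0.14, 3.97 ± 0.29 and 3.35 ± 0.20, and PIR5 rose by 4.57 ± 0.20. Genes of glucan, chitin and cell separation fell in 15 and rose in 8 of 31 cases, but 18 fell and 5 rose without normalisation (offset 4.3). Those with the widest changes were GAS4 and FKS3, both known for the spore wall, with rises of 6.74 ± 0.16 and 4.13 ± 0.27, then CHS6 with a rise of 3.15 ± 0.14 and GAS5 with a fall of 2.91 ± 0.14.

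Genes of meiosis and sporulation, hardly above the lowest ranks at 4h, rose. Of 59 tested, 50 rose and 3 fell, with a median change of 2.18 and a median percentile of 4.9 at 4h and 53.8 at 30h. The offset was 10, smaller than that gain in rank. 4 members lay below background on all 4h arrays and none did so at 30h. Of the 39 members above background on all 6 arrays, 30 rose and 3 fell, where 36.9% of all 5048 such genes rose. Most members started from low ranks, however. Of the 59 tested 84.7% rose, beside 80.3% of all genes in the lowest decile at 4h, where the median member lay.

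MER1, a splicing factor used in meiosis, had 1.78, 2.87 and 3.20 on the 4h arrays and 10.07, 10.49 and 10.49 on the 30h arrays. All 3 late arrays were far above the early ones, and the change was 7.73 ± 0.34 (adjusted p = 6.65e-07), or 6.94 without 4h A. Only 1 of its 4h values lay above background, so the size of the change in MER1 is uncertain. SAE3, a recombination factor, had 1.07, 2.63 and 1.62 on the 4h arrays and 9.10, 8.82 and 9.36 on the 30h arrays. Its 4h values were below background, and it rose at least 70.4-fold (adjusted p = 1.11e-06). MAM1, which joins sister kinetochores in meiosis, was above background on only 1 of the 4h arrays. MAM1 rose by 5.98 ± 0.68 and by 4.81 without 4h A. HOP2, for pairing of homologous chromosomes, rose at least 28.2-fold. The entry regulators IME1 and NDT80, both named after their values were seen, rose by 3.25 ± 0.27 and 1.84 ± 0.28.

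Mating genes rose as well. Of 34 mating and haploid genes, 29 rose and 1 fell, with a median of 2.80, a median percentile of 6.2 at 4h and 59.5 at 30h and an offset of 16.8. The rises were 85.3% of the list, beside 80.3% of all genes in the lowest decile at 4h, where its median member lay. FIG1, for cell fusion, had 0.65, 1.58 and 3.47 on the 4h arrays and 7.17, 7.73 and 7.67 on the 30h arrays, with scattered low 4h values that all lay below the 30h values. It rose by 5.63 ± 0.63, and by 4.74 without 4h A, with only 1 of its 4h values above background. STE3, the receptor for a-factor, had 3.48, 3.18 and 3.50 on the 4h arrays and 7.67, 8.35 and 9.03 on the 30h arrays and RME1, a repressor of meiosis in haploids, had 3.94, 3.97 and 4.15 on the 4h arrays and 7.94, 9.48 and 9.43 on the 30h arrays. Both stood higher on every 30h array, by 4.96 ± 0.32 and 4.92 ± 0.38. The a-factor gene MFA2 rose by 4.55 ± 0.27. STE2, the receptor for alpha-factor, named after its value was seen, rose by 2.80 ± 0.30. The changes of RME1 and STE3 were 5.71 and 5.60 without 30h A.

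Cell division genes moved both ways. Of 32 cyclins and regulators, 16 rose and 9 fell (median 0.56, offset 2.2). The G1 cyclin gene CLN2 had 6.69, 6.73 and 6.65 on the 4h arrays and 9.34, 10.02 and 10.56 on the 30h arrays, all higher at 30h. It rose by 3.29 ± 0.28. PCL9, the S-phase cyclin gene CLB5 and FAR1, an inhibitor of G1 cyclins, rose by 3.57 ± 0.36, 3.51 ± 0.15 and 2.87 ± 0.25. Of 46 replication genes, 20 rose and 13 fell, but 12 rose and 18 fell without normalisation (offset -3.8). MCM10, PSF3 and ORC3 rose by 2.95 ± 0.19, 2.89 ± 0.14 and 2.62 ± 0.16, and MCM5, below background at 30h, fell at least 3.92-fold. Histone genes fell in 7 of 9 cases and none rose, though 1 rose without 30h C (offset 13.1). The 7 were 77.8% of the list, beside 81.9% of all genes in the highest decile at 4h, where its median member lay. At an unadjusted p under 0.05 in limma the glycolysis and histone lists likewise held 0 rises, and the thiamine and seripauperin lists 0 falls. HHT2, HTB2, the variant gene HTZ1 and HTA2 fell by 2.64 ± 0.17, 2.31 ± 0.14, 2.12 ± 0.26 and 1.52 ± 0.16. ACT1, actin, had 10.46, 10.46 and 10.49 on the 4h arrays and 8.44, 8.79 and 9.13 on the 30h arrays and fell by 1.68 ± 0.19. In the cytoskeleton list 26 of 32 genes fell and 3 rose, but 29 fell and 1 rose without normalisation (offset -19.8). Profilin (PFY1), myosin (MYO5), ARP2 and cofilin (COF1) fell by 4.37, 4.13, 3.36 and 3.12.

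**Figure D4:**
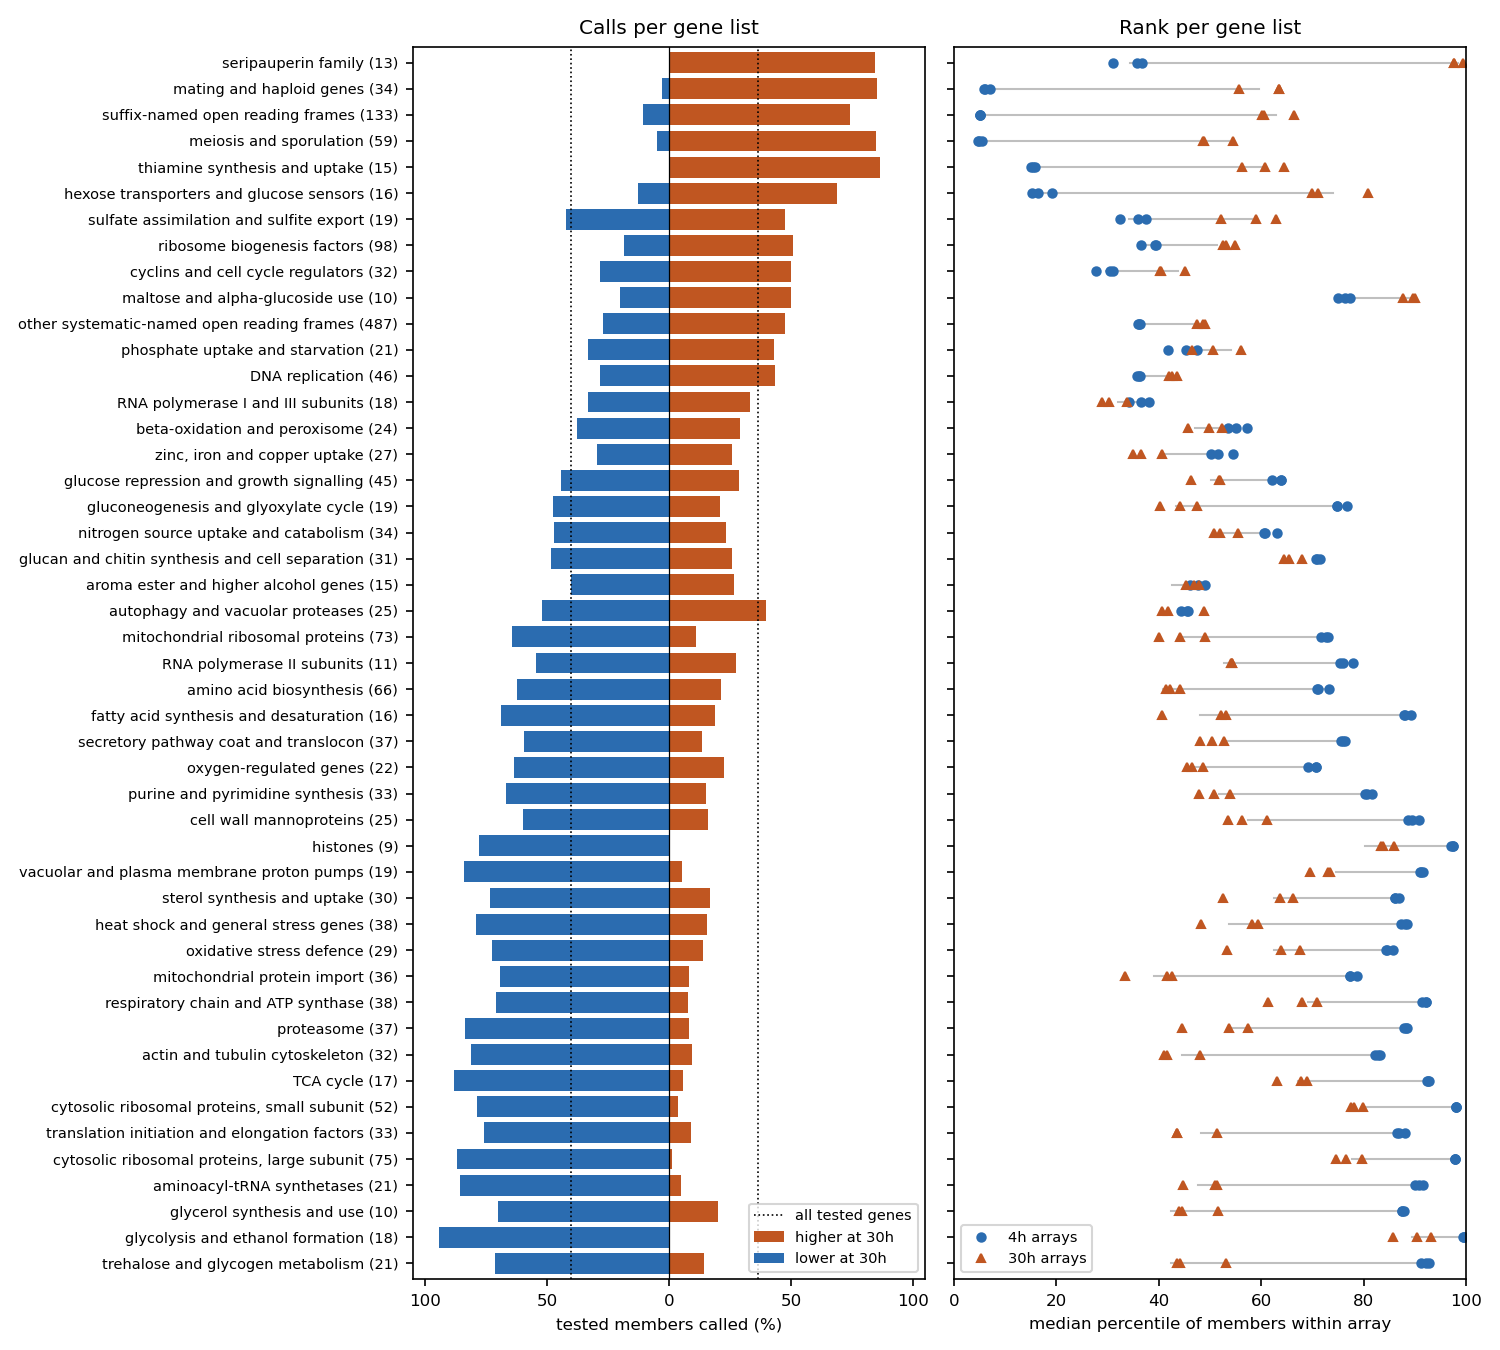
Left, percent of tested members called higher (right of 0) or lower (left of 0) at 30h for 47 gene lists, with the number tested in brackets and dotted lines at the shares of all tested genes, 36.5% and 40.0%. Right, median percentile of the members on each 4h array (circles) and each 30h array (triangles), with a grey line between the medians of the mean percentiles. Lists at the top start from low or middle ranks, except maltose use, and lists at the bottom start from high ranks.

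Building-block synthesis fell more often than not. Of 66 amino acid genes, 41 fell and 14 rose (median -1.18, offset -10.2), but 51 fell and 7 rose without normalisation. The 41 were 62.1% of the list, beside 61.1% of all genes in the 8th decile at 4h, where its median member lay. ILV1 and CYS3 of isoleucine and cysteine synthesis fell by 4.75 ± 0.86 and 4.24 ± 0.51, and LYS12 of lysine synthesis by 3.91 ± 0.17. ILV1 fell by 4.09 without 30h A and by 6.10 without 30h C. HIS6 of histidine synthesis had 5.42, 5.26 and 5.45 on the 4h arrays and 9.998, 9.91 and 9.53 on the 30h arrays, all higher at 30h. It rose by 4.43 ± 0.17. Of 33 purine and pyrimidine genes, 22 fell and 5 rose, but 26 fell and 3 rose without normalisation (offset -14). The 22 were 66.7% of the list, beside 72.1% of all genes in the 9th decile at 4h, where its median member lay. ADE8, URA6, ADE1 and ADE2 fell by 4.78 ± 0.21, 4.49 ± 0.58, 3.46 ± 0.34 and 3.24 ± 0.14. The changes of ADE1 and CYS3 were -4.10 and -5.18 without 30h A. The change of URA6 was -5.29 without 30h C.

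Among nutrient uptake lists, thiamine genes rose in 13 of 15 cases and none fell, though 1 fell without normalisation, with a median of 1.68 and an offset of 19. THI4, which makes the thiazole part of the vitamin, had 4.38, 4.15 and 4.16 on the 4h arrays and 6.89, 6.33 and 6.57 on the 30h arrays. Every 30h value was above every 4h value, and it rose by 2.36 ± 0.20. The activator gene THI2, the transporter gene THI72 and THI73 rose by 2.56 ± 0.15, 2.53 ± 0.19 and 3.08 ± 0.36. For phosphate 9 of 21 genes rose and 7 fell, but 7 rose and 9 fell without normalisation (offset 1.5). The phosphate transporter gene PHO84 had 3.71, 4.16 and 4.22 on the 4h arrays and 6.75, 6.44 and 6.29 on the 30h arrays, without overlap. It rose by 2.46 ± 0.22 and the sodium-phosphate transporter gene PHO89 by 4.41 ± 0.15. The kinase gene PHO85 fell by 2.93 ± 0.15, and PHM6 rose at least 5.35-fold. The change of THI73 was 3.68 without 30h C.

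Sulfate assimilation genes rose in 9 and fell in 8 of 19 cases (offset 7.6). The activators MET4 and MET32 rose by 3.17 ± 0.22 and 3.12 ± 0.50, SAM1, which makes S-adenosylmethionine, fell by 2.93 ± 0.20, and MET8 fell below background. MET8 was called in the fit used here (adjusted p = 0.0178) but not with any 1 of the 4h arrays left out (adjusted p = 0.0578 to 0.0598). For nitrogen sources 16 of 34 genes fell and 8 rose, but 22 fell and 4 rose without normalisation (offset -4.2). The proline oxidase gene PUT1, the glutamate dehydrogenase gene GDH2 and the arginine permease gene CAN1 fell by 3.63 ± 0.21, 3.44 ± 0.19 and 2.96 ± 0.19, and the GABA permease gene UGA4 rose by 3.15 ± 0.20. The change of MET32 was 3.75 without 30h A.

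For metals 8 of 27 genes fell and 7 rose (offset -12.7). This balance depended on the setting: 14 fell and 3 rose without normalisation, while on percentile ranks 9 rose and 8 fell and among genes above background on all 6 arrays 7 rose and 6 fell. The iron oxidase gene FET3, the vacuolar zinc transporter gene ZRC1 and ISU1 fell by 3.81 ± 0.27, 3.25 ± 0.34 and 2.81 ± 0.27, and the reductase gene FRE2 rose by 2.35 ± 0.21. The wort had been supplemented with zinc. The high-affinity zinc transporter gene ZRT1 had 9.46, 9.40 and 9.30 on the 4h arrays and 9.52, 7.93 and 7.75 on the 30h arrays. Array 30h A stood above the 4h values and the other late arrays below them, and the change of -0.98 ± 0.41 (adjusted p = 0.058) was not a call; without 30h A it was -1.62.

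Flavour genes, on which beer aroma depends, were divided. Of 15 ester and higher alcohol genes, 6 fell and 4 rose, but 9 fell and 2 rose without normalisation (offset -5.8). After normalisation the falls and rises were 40.0% and 26.7% of the list, beside 40.0% and 36.5% of all tested genes. ATF1, which makes acetate esters, had 6.19, 6.31 and 6.20 on the 4h arrays and 7.24, 7.89 and 7.41 on the 30h arrays. All 30h values lay above the 4h values, and the change was 1.28 ± 0.19 (adjusted p = 0.000343). It was 0.46 on the deposited scale, with an adjusted p of 0.0843. The dehydrogenase genes SFA1 and ADH6 fell by 2.75 ± 0.15 and 2.18 ± 0.14, while THI3 and the decarboxylase gene ARO10 rose by 2.05 ± 0.20 and 1.62 ± 0.23.

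Among housekeeping transport lists, 16 of 19 proton pump genes fell and 1 rose (offset 6). The 16 were 84.2% of the list, beside 81.9% of all genes in the highest decile at 4h, where its median member lay. PMA1, the pump of the plasma membrane, had 9.56, 9.38 and 9.27 on the 4h arrays and 7.78, 7.38 and 7.69 on the 30h arrays. It fell by 1.78 ± 0.16, and the vacuolar subunits VMA4, VMA1, VMA2 and VMA13 fell by 4.95, 3.36, 3.12 and 2.72. In the secretory list 22 of 37 fell and 5 rose, but 31 fell and 1 rose without normalisation (offset -9.7). The 22 were 59.5% of the list, beside 61.1% of all genes in the 8th decile at 4h, where its median member lay. SEC17, STT3 and the disulfide isomerase gene PDI1 fell by 3.75, 3.22 and 2.99, and SEC22 at least 12-fold. Of 25 autophagy and vacuolar protease genes, 13 fell and 10 rose, but 14 fell and 6 rose without normalisation (offset -9.7). The protease genes PEP4 and PRB1 fell by 3.12 and 2.79 and the autophagy gene ATG18 by 3.24, while ATG10, which helps conjugate Atg proteins, rose by 3.83. Of 11 RNA polymerase II subunits, 6 fell and 3 rose, but 8 fell and 1 rose without normalisation (offset -0.1). RPO21, RPB4 and RPB7 fell by 2.52, 2.12 and 1.98, and RPC10 stood at 1.56 after normalisation but at -0.01 on the deposited scale. Of 45 genes of glucose repression and growth signalling, 20 fell and 13 rose, but 34 fell and 6 rose without normalisation (offset 0.2). The repressor gene RGT1, RAS2 and BCY1 fell by 3.72, 3.26 and 3.10, and the repressor gene NRG2 rose by 3.33. The changes of ATG18 and VMA4 were -3.89 and -4.36 without 30h C. The change of VMA4 was -5.77 without 30h A.

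Beyond the lists, the 15 largest rises with non-overlapping arrays were mostly poorly characterised reading frames. YBR219C had -1.64, 3.71 and 3.71 on the 4h arrays and 10.98, 10.76 and 10.77 on the 30h arrays. Array 4h A lay far below the other early arrays, and the rise of 8.91 ± 1.26 was 6.86 without it. YDL159W-A rose at least 177-fold. The rises of YOR365C, YBL008W-A, DGR1, YNL146C-A, RRT5, YKL183C-A, YOL155W-A, YBR298C-A and YHR214C-D lay between 6.35 and 7.28. Beside MER1, SAE3 and GAS4, the characterised gene in this set was GIT1, which takes up glycerophosphoinositol. GIT1 had 2.57, 3.16 and 2.77 on the 4h arrays and 9.35, 9.08 and 9.05 on the 30h arrays and rose by 6.33 ± 0.20, again with a clear gap. The changes of MER1 and YNL146C-A were 6.94 and 6.15 without 4h A. The change of YBR219C was 9.52 without 4h B. The change of YBR219C was 9.52 without 4h C. The change of YBR298C-A was 7.03 without 30h B.

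The 15 largest falls were all of genes with a standard name. Beside those described above they held NAP1, a histone chaperone, YPK2, a kinase of membrane signalling, PTC2, a protein phosphatase, MLC1, a myosin light chain, and OPI10. NAP1 had 8.25, 8.17 and 8.28 on the 4h arrays and 3.87, 2.63 and 0.86 on the 30h arrays, so that 30h A was the highest of the late arrays and still below the early ones. It fell by 5.79 ± 0.64, and by 6.82 without 30h A. MLC1 fell by 5.57 ± 0.68, and by 6.57 without 30h A. Both NAP1 and MLC1 lay above background on only 1 of the 30h arrays, so the sizes of their falls are uncertain. YPK2, PTC2 and OPI10 were below background at 30h and fell at least 16.6-fold, 7.91-fold and 16.7-fold. The change of MLC1 was -4.95 without 30h B.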

How the data were processed

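Total RNA was hybridised to single-colour Affymetrix arrays, and each deposited value is the intensity of 1 probe set on a linear scale, made with GCOS 5.0 and MAS5 per the submitters' processing notes. The table does not share 1 scale over the arrays: the mean after trimming 2% at each end was 100 on the 4h arrays and 38.5 to 51.1 on the 30h arrays. Gene names came from the platform's annotation, which can be old: 5685 carried 1 S. cerevisiae gene and 4916 1 S. pombe gene. One probe set stood for each gene. A gene was tested where its mean log2 distance to the background, the 95th percentile of S. pombe signals on each array, was above 0; 157 genes were left out.

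Log2 signals were quantile-normalised over the S. cerevisiae probe sets of the 6 arrays and fitted with limma 3.58.1 in R 4.3.3 (lmFit, eBayes with trend, 4 residual degrees of freedom, no fold minimum). The steps were first run on simulated data in which 200 of 5478 genes changed, far fewer than were called here. They recovered 52% of changes of 1 log2 unit and 88% of changes of 2. The simulation does not cover a change through most of the genome. The number of arrays limits the precision. Named genes were the 15 largest rises and 15 largest falls with non-overlapping arrays and no shared probes, the 4 widest changes of each list, and a set of chosen genes; others are marked in the text. The lists and genes were chosen with earlier results of these data known, and the lists of reading frames and the offset were added after the data were seen. Promoter motifs were planned but not analysed here.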

Additional observations from a re-analysis of the deposited data

Results flagged for a closer look

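The ribosomal RNA control probe sets of the array, which no comparison used, gave a median signal over 6 probe sets of 2940 on 4h A, 2790 on 4h B and 226 on 4h C, above the background of each of these arrays. On 30h A, 30h B and 30h C the same median was 8.54, 2.69 and 13, below the background of each. Array 4h C therefore stood apart from its replicates in these controls, although it shared their order of genes, and the times differed as well. The cause was not tested.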

How the results depend on the processing

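The counts of genes that rose and fell stayed within 1.5 times of 1997 and 2190 under each alternative run. They were 1458 and 2904 without normalisation, 2139 and 2345 with median centring, 2047 and 2207 on percentile ranks, 1760 and 1889 in a fit over all 12 arrays, 1530 and 1706 with a fold minimum of 1 log2 unit, and 1862 and 1972 among genes above background on all 6 arrays, a setting added after seeing the data. Leaving out 1 array gave 1832 to 2113 rises and 1979 to 2280 falls. Deviations of arrays with the same letter A, B or C correlated at 0.004, -0.022 and -0.001. No shared deviation was seen, though with 3 arrays per time this cannot show that the samples were unpaired. With the letter as a replicate block 1963 genes rose and 2168 fell. Of 220 named genes, 3 reversed under another scaling: HSP12 stood at -1.37 with median centring and -1.95 on the deposited values, and RPC10 and MAL11 at -0.01 and -0.06 on the deposited values, where neither was a call. Median centring ended the calls of MET8 and RPC53, the deposited values those of HXT1 and ATF1, and the fit over all 12 arrays those of MET8, HSP12 and ERG11; HSP12 was also no call with median and MAD scaling, on percentile ranks or with the replicate block. Named genes that gained a call numbered 2 with median centring, 2 with median and MAD scaling and 3 on the deposited values. Leaving out 1 array moved the change of 48 named genes by over 1.5-fold, most often 30h A (24 genes), and ended the calls of MET8, HSP12 and ERG11 but of no other named gene. Without normalisation the arrays keep their unequal scales, and the median of all genes was -0.68 against -0.10; the cause of the other changes was not tested. Signals near background limit the size of any fold.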

Other observations

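Reading frames with systematic names formed a group that the lists of known function do not cover. Of 133 tested frames whose names carry a suffix, such as YDL159W-A, 99 rose and 14 fell, with a median log2 change of 2.67, or 2.59 with genes dim on all arrays of a time set at their bound. Their median percentile was 5 at 4h and 63 at 30h, with an offset of 19.3 from genes of the same decile at 4h. Of the 82 above background on all 6 arrays, 57 rose and 11 fell, where 36.9% of all 5048 such genes rose. Of the 133 tested 74.4% rose, beside 80.3% of all genes in the lowest decile at 4h, where the median frame lay. Without normalisation 97 of the suffix-named frames rose and 23 fell. Of 487 other frames known only by a systematic name, 232 rose and 131 fell, with a median of 0.43 and an offset of 1.4. Without the suffix-named frames 1898 genes rose and 2176 fell over the whole array. Both lists were drawn up after the data were seen, and many such frames overlap another gene, whose RNA the probes may also bind.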
